A study of Mus musculus with 8 samples.

Results

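The 10 genes described here encode metalloproteinases and their inhibitors: the secreted matrix metalloproteinases Mmp2, Mmp8, Mmp9, Mmp12 and Mmp13, the membrane-anchored matrix metalloproteinase Mmp14, the membrane-bound metalloproteinase Adam8, and the tissue inhibitors Timp1, Timp2 and Timp3. Every probe set, a group of short probes read as a single value, whose platform annotation names one of these genes and no other was taken. This gave 21 of the 22626 probe sets on the array without controls, with 6 for Timp2, 4 for Timp3, 2 each for Mmp2, Mmp9 and Mmp14, and 1 for each of the others. RNA had been measured on 8 one-colour arrays of mouse macrophages grown from bone marrow for 7 days in medium holding M-CSF, a growth factor, at 50 ng/ml. The cells came from wild-type mice or from Vdr-/- mice, which carry the knockout allele Vdr tm1 Rge of the vitamin D receptor gene in the whole animal. Cells of each genotype were left untreated or were given the receptor's ligand calcitriol (1alpha,25(OH)2D3), the cytokine IFN-gamma, or both, for 24 to 48 hours. Each of these 8 groups had 1 array and no replicate. The sources used here do not give doses, age, strain background or any pooling of mice. A protocol for elicited peritoneal macrophages also stands in the labels, but each sample's own source names bone marrow derived cells.

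Matrix metalloproteinases are zinc enzymes that cut extracellular matrix proteins, cytokines and other secreted proteins. They are made as inactive precursors whose propeptide blocks the zinc until it is cut off or displaced. Tissue inhibitors of metalloproteinases bind the active site, and Timp2 also takes part in the activation of the Mmp2 precursor by Mmp14. Macrophages are known for Mmp12, the macrophage elastase, and mice that lack it have macrophages with little ability to degrade elastin.

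Whole-array checks set limits on these values. Median signal was 53.4 to 68.2 per array in the deposited, scaled units. Signals below 15.5, the lower quartile of all values, were raised to this floor before log2 was taken. Pearson's r between arrays was 0.741 to 0.809 for the arrays labelled wild-type calcitriol and Vdr-/- untreated against all others, and 0.815 to 0.897 among the other 6. The ratio of 3' to 5' Gapdh control signal, which rises with RNA truncation, was 7.67 and 4.82 on those 2 arrays, 3.06 in Vdr-/- with IFN-gamma, and 0.853 to 1.65 on the 5 remaining arrays. Vdr, the targeted gene, went against the labels of the untreated arrays. Its first probe set was at 5.3 in the sample labelled wild-type untreated and at 63.2 in that labelled Vdr-/- untreated, but 118.1, 82.9 and 385.9 in wild type and 9.8, 2.5 and 23.6 in Vdr-/- with calcitriol, IFN-gamma and both. The other read 6.7 and 90.3 on the untreated arrays, then 51.5, 84.4 and 226.7 in wild type and 2.6, 45.6 and 25 in Vdr-/-. The sources used here do not say where these probe sets lie against the deleted part of Vdr. The macrophage markers Csf1r and Lyz2 read at least 9769 and 16652 on every array by brightest probe set. Some other macrophage markers varied more, with Itgam at 80 to 977.6, Cd14 at 228.3 to 2272 and Fcgr1 at 145.2 to 3897. A dimmer Csf1r probe set read 1024 in wild-type calcitriol, 1016 in the array labelled Vdr-/- untreated and 1315 in wild type with both treatments. On the remaining arrays it read 3853 to 4642.

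Mmp13, Mmp12 and Mmp8 lie in a cluster of metalloproteinase genes on chromosome 9, where Mmp13 and Mmp12 are next to each other among coding genes. The 250 bases before the annotated start sites were read from RefSeq's promoters of the GRCm38.p6 build for 8 of the 10 genes; Mmp2 and Mmp9 were not matched. They were searched on both strands for 3 motifs. The AP-1 motif TGANTCA, known from metalloproteinase promoters and the target of the Fos and Jun proteins, is in 6.75% of all 32851 windows of this length. The STAT motif TTCNNNGAA is in 7.02% and the interferon response motif (GAAA and again GAAA, with any 2 bases between) in 2.98%, and none of the 3 motifs contains another. An AP-1 match was found in Mmp12, at 44 to 38 bases before the second of its 2 annotated starts, and in Mmp13, at 35 to 29 bases before its start. Both sequences are shown because these neighbouring genes share the motif. Capitals mark the AP-1 matches and, in Mmp13, also the earlier match to the interferon response motif on the opposite strand. The Mmp12 window is chr9:7347124-7347373 and the Mmp13 window chr9:7272264-7272513, both on the + strand.
Mmp12: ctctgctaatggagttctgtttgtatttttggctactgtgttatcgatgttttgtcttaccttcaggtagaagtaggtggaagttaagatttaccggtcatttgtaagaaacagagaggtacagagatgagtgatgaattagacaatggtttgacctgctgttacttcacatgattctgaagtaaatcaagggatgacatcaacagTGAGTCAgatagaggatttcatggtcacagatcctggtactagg
Mmp13: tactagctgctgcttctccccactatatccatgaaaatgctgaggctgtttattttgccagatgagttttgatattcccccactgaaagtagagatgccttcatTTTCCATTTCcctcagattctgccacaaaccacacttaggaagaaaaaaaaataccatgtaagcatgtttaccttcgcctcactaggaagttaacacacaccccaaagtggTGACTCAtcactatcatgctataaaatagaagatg
The other 6 matched genes, and the first Mmp12 start, held none of the 3 motifs in this window. A match describes letters and not binding, and no match says nothing about the factor.

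The plot of signal by array shows the 10 genes side by side. Probe sets differ in brightness for technical reasons, so levels are compared between arrays and never between genes.

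**Figure D1:**
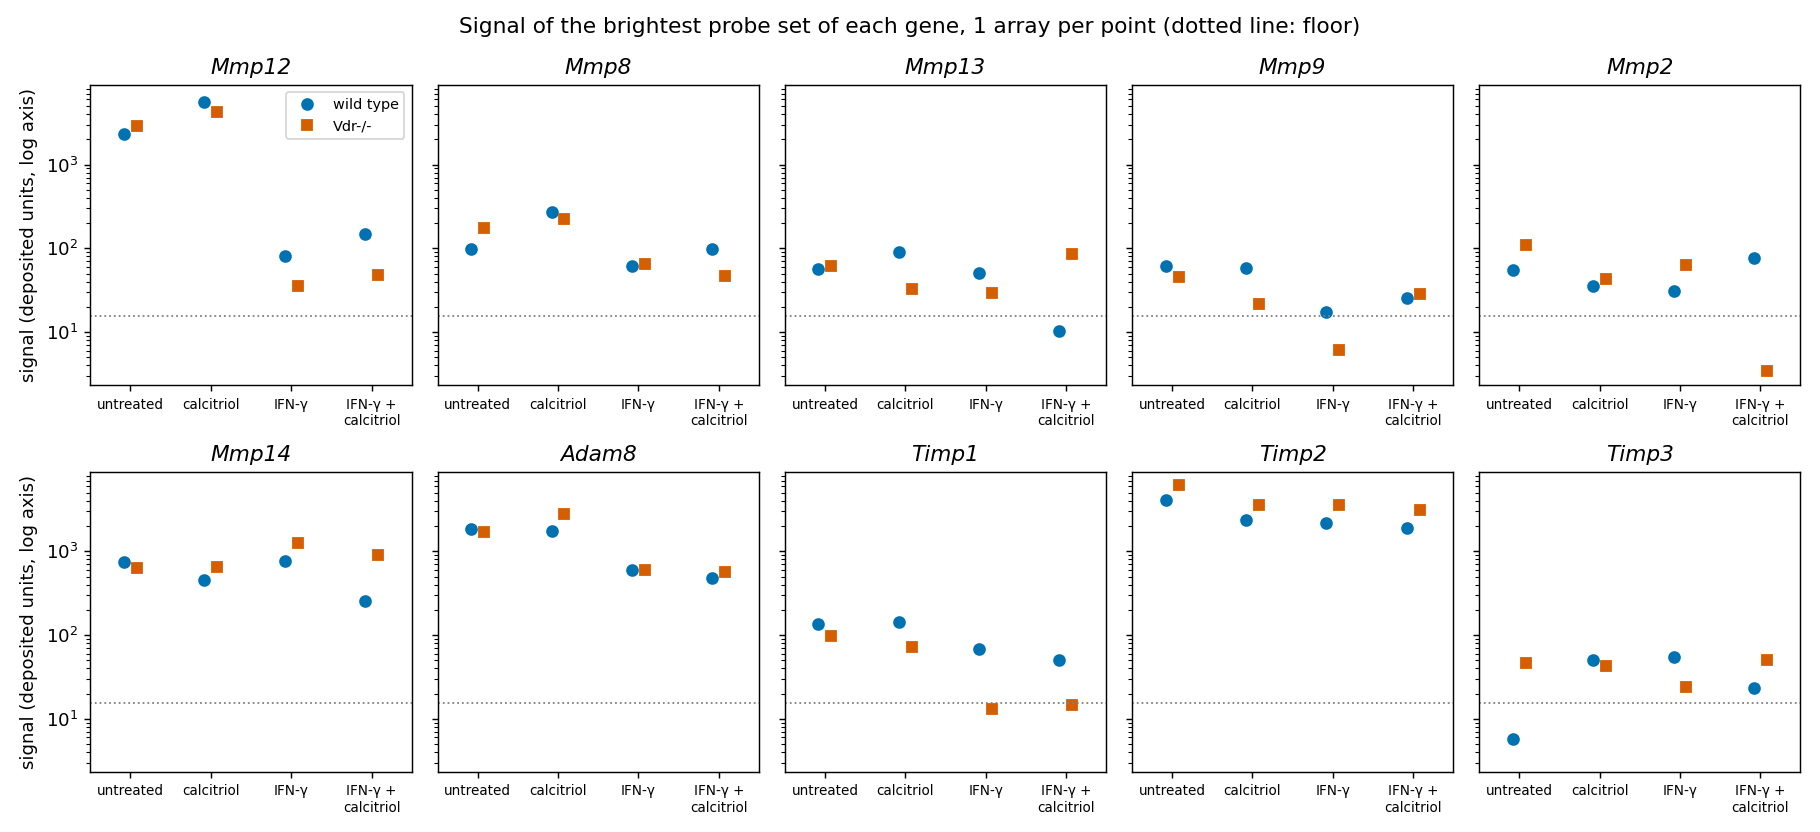
Signal of each gene's brightest probe set on the 8 arrays, on a log axis in the deposited scaled units, by treatment, with circles for wild type and squares for Vdr-/-, 1 array per point; the dotted line is the floor of 15.5. Mmp12 sits at 2331 to 5625 without IFN-gamma and at 35.1 to 149.9 with it, while Mmp13 and Mmp2 overlap between arrays with and without it.

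IFN-gamma was compared with its absence over 4 array pairs that each shared genotype and calcitriol. Mmp12 and Adam8 were called lower, as were 3 of the 5 tested probe sets of Timp2, and no metalloproteinase or inhibitor was called higher. By brightest probe set, 9 of the 10 genes passed the signal filter, which asked for 59.1 on at least 1 array, and 2 of the 9 were called at an adjusted p under 0.05 in limma's moderated test. Among all 10366 named genes tested in this way 4.01% were called, 1.57% lower and 2.44% higher, and 3.43% of all probe sets were called, 1.27% lower. The median change of the 9 genes was -1.04 log2, against -0.09 for all genes tested. The filter favours genes that are high in some group, so these counts are a description.

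Mmp12 had the largest change with IFN-gamma of the 9 genes tested. Without IFN-gamma its only probe set gave 2331 for the array labelled wild-type untreated, 5625 for wild-type calcitriol, 2872 for the array labelled Vdr-/- untreated and 4290 for Vdr-/- calcitriol. With IFN-gamma it read 81.9 in wild type, 149.9 in wild type with calcitriol, 35.1 in Vdr-/- and 48.4 in Vdr-/- with calcitriol. All 4 arrays with IFN-gamma thus lay far below the lowest array without it, and none was at the floor. The fitted change was -5.72 log2 (SE 0.274, limma adjusted p = 2.91e-13), a 52.8-fold fall that ran the same way in 4 of 4 pairs. An additive model of only the 6 arrays with lower Gapdh ratios gave a change of -5.55 log2 (adjusted p = 0.0208), about as large.

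Adam8, a sheddase of leukocytes that cuts membrane proteins, fell less than Mmp12 in every pair. It read 1861, 1739, 1685 and 2759 without IFN-gamma, for the arrays labelled wild-type untreated and calcitriol and Vdr-/- untreated and calcitriol in turn. With IFN-gamma the same order gave 607.4, 478.8, 593.2 and 566.9. The groups were far apart, and the 4 arrays with IFN-gamma differed little from each other. Its change was -1.82 log2 (SE 0.217, limma adjusted p = 3.8e-06), a 3.52-fold fall. The additive model of those 6 arrays gave -2.02 log2 (adjusted p = 0.0584), and the fit without the intensity trend gave the same -1.82 log2 (adjusted p = 0.118).

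None of the collagenases and gelatinases was called. Mmp8, the collagenase best known from neutrophil granules, read 98.3 and 270.9 in wild type and 175.9 and 223.6 in Vdr-/- without IFN-gamma, untreated before calcitriol. With IFN-gamma it read 62.3 and 97.3 in wild type and 65.6 and 46.3 in Vdr-/-. The groups did not overlap, by a margin of 97.3 against 98.3, and the change of -1.46 log2 (SE 0.421) had a limma adjusted p of 0.0597. Mmp8 passed with the floor at the 40th percentile (adjusted p = 0.0307) and with the mean over probe sets. Mmp9, the gelatinase of neutrophils and macrophages, read 21.6 to 61.2 without IFN-gamma and 6.2 to 28.7 with it on its brighter probe set, with a change of -1.04 log2 (adjusted p = 0.582). Its second probe set read above the floor on only 3 arrays, among them 47.3 and 60.7 in wild type without IFN-gamma, untreated and with calcitriol. Mmp13, a collagenase of cartilage and bone, overlapped between groups at 32.6 to 89.8 and 10.4 to 85.3, and went up in 1 pair and down in 3. Mmp2, a gelatinase of stromal cells, read 36 to 111 without IFN-gamma and 3.4 to 77.3 with it on its brighter probe set, and its second probe set overlapped as well. The 95% intervals of -2.40 to 0.32 log2 for Mmp9, -1.97 to 0.79 for Mmp13 and -1.80 to 0.80 for Mmp2 allow changes of more than 1 log2 down, which was not detectable at these signals.

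Markers of cell types were also read with and without IFN-gamma. The summed signal of 11 neutrophil and precursor markers, of 13 listed, was 431.9 to 490.6 without IFN-gamma and 279.4 to 334.9 with it, and Camp, Elane, Prtn3 and Chil3 were at the floor on at least 5 arrays. Gene by gene, 7 neutrophil markers were tested and 0 called. Their median change was -0.0877 log2, against -0.0878 for all genes tested. The sum of 12 stromal markers was 604 to 992 without IFN-gamma and 216.6 to 421.1 with it, with Pdgfrb and Postn at the floor on at least 5 arrays. The sum of 6 osteoclast markers, of 8 listed, ran from 421.3 to 862.2 and from 351.7 to 567, with Itgb3 at the floor on at least 5 arrays, and that of 9 macrophage markers, of 11 listed, from 55277 to 60877 and from 37185 to 53220. The sum of 7 lymphocyte markers, of 8 listed, overlapped at 96.8 to 324.9 and 109 to 264, with Cd3e at the floor on at least 5 arrays. Of all these markers, limma called the osteoclast gene Ocstamp higher (adjusted p = 0.0416) and Ctsk, for the collagen-cutting protease of osteoclasts, lower (-2.16 log2, adjusted p = 0.03), the macrophage Fc receptor gene Fcgr1 higher (1.96 log2, adjusted p = 3.17e-05), and the stromal Col3a1 lower. Without IFN-gamma all 4 Ocstamp values were at the floor, and with it they were 53.9 to 140.1, so the size of its rise is not given. Their part in the changes of the proteases and inhibitors was not tested. In bulk RNA, fewer cells of a type and less RNA per cell cannot be told apart.

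**Figure D2:**
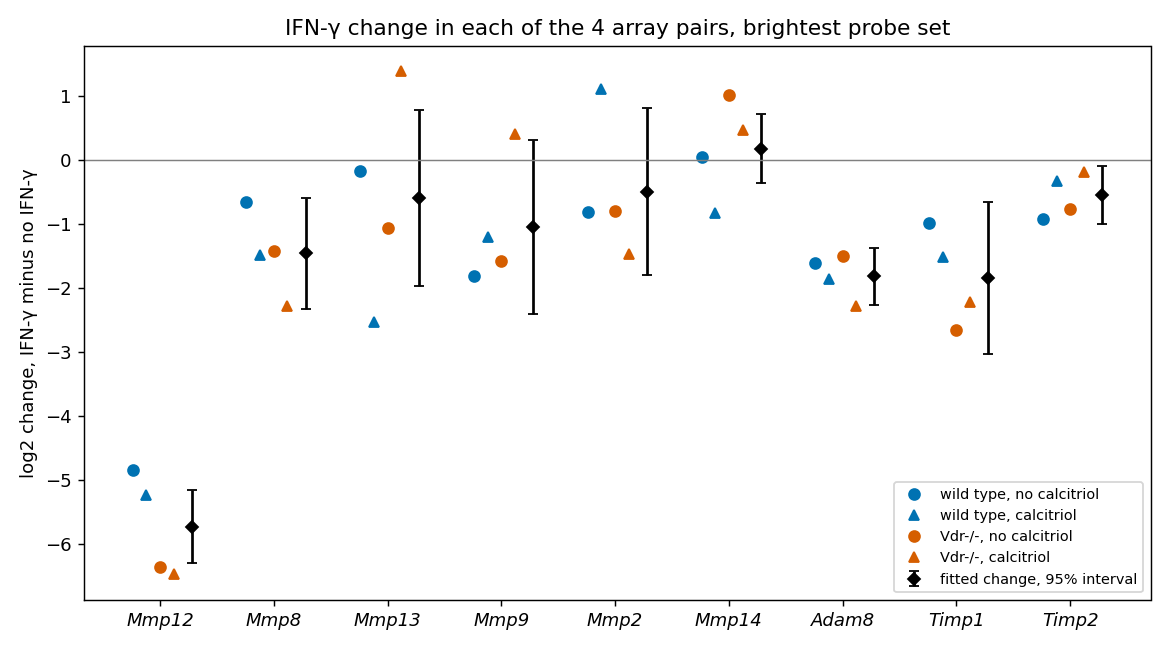
Log2 change with IFN-gamma in each of the 4 array pairs for the 9 tested genes, brightest probe set, with circles for pairs without calcitriol, triangles for pairs with it, blue for wild type and orange for Vdr-/-, and black diamonds for the limma estimate with its 95% interval. Mmp12 lies between -4.83 and -6.47 in the 4 pairs, Adam8 between -1.51 and -2.28, and Mmp14 on both sides of 0.

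Among the inhibitors, Timp2 gave different sizes of change from different probe sets, although all 5 tested had negative estimates. Its brightest read 4078 and 2390 in wild type and 6143 and 3565 in Vdr-/- without IFN-gamma, untreated before calcitriol. With IFN-gamma it read 2151 and 1911 in wild type and 3610 and 3130 in Vdr-/-. The groups overlapped, and the change of -0.55 log2 (SE 0.219) was not called (limma adjusted p = 0.253). The second-brightest probe set read 2763 and 2192 in wild type and 3661 and 2426 in Vdr-/- without IFN-gamma, against 975 and 393.3, then 1222 and 1502, with it. Here the groups did not overlap, and the fall was 1.56 log2 (SE 0.243, adjusted p = 0.000156). The third and the fifth also fell, by 1.44 log2 (adjusted p = 0.000524) and 1.72 log2 (adjusted p = 0.014), while the fourth changed by -0.81 log2 (adjusted p = 0.271). The sixth was at the floor on 6 arrays and was not tested. The 3 calls were lost with no signal filter and with no intensity trend, at the same estimates, and in the additive model of 6 arrays, where they were -1.50, -1.56 and -2.05 log2. The adjusted p in these fits was 0.178 to 0.434. No call was left when any of 3 of the 4 pairs was dropped (either wild-type pair, or the Vdr-/- pair without calcitriol). The mean over Timp2's tested probe sets was called at -1.22 log2 (adjusted p = 0.00542).

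**Figure D3:**
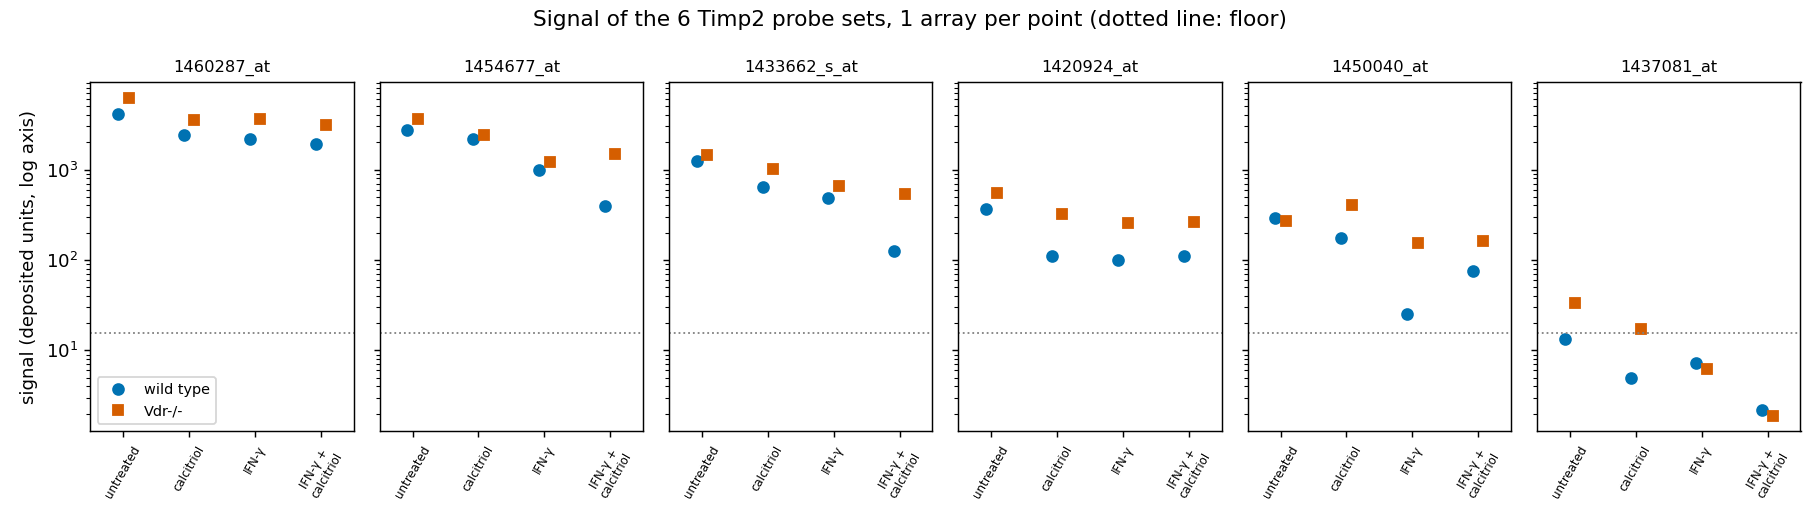
Signal of the 6 Timp2 probe sets on the 8 arrays, on a log axis in the deposited scaled units, from the brightest at left to the dimmest at right, with circles for wild type and squares for Vdr-/-; the dotted line is the floor of 15.5. In wild type, between the untreated array and the one with IFN-gamma and calcitriol, the brightest goes from 4078 to 1911 and the second from 2763 to 393.3.

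Timp1, an inducible inhibitor, was also lower with IFN-gamma on every array, but was not called. It read 134.2 and 144.1 in wild type and 97.9 and 71.7 in Vdr-/- without IFN-gamma, untreated before calcitriol. With IFN-gamma it read 68 and 50.7 in wild type and 13.3 and 14.6 in Vdr-/-, the last 2 at the floor. The groups did not overlap, and the change was -1.84 log2 (SE 0.572, limma adjusted p = 0.0915), a size that the floor limits in Vdr-/-. Timp3, an inhibitor that stays bound to the matrix, read 5.7 to 54.2 on its brightest probe set, which did not pass the signal filter. One of its 4 probe sets was tested, with a change of -0.03 log2 (adjusted p = 0.994).

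In all, 4 of the 9 tested genes (Mmp12, Mmp8, Timp1 and Adam8) had every array with IFN-gamma below every array without it, as did 3.96% of all named genes tested, and none had them all above, as 3.4% did. Mmp14, the membrane protease that starts the activation of Mmp2, did not move one way. Its brighter probe set read 742.5 and 456.3 in wild type and 628.8 and 658 in Vdr-/- without IFN-gamma, untreated before calcitriol. With IFN-gamma it read 768.7 and 257.1 in wild type and 1269 and 907.8 in Vdr-/-. The 2 highest arrays were thus both Vdr-/- with IFN-gamma, and the lowest was wild type with IFN-gamma and calcitriol. The change over all pairs was 0.17 log2 (limma adjusted p = 0.848), with a 95% interval of -0.36 to 0.71.

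The size of the IFN-gamma change was set against genotype in a fit with effects nested in genotype, where limma called 0 of 18058 probe sets (635 at an unadjusted p under 0.05) and 0% of named genes. With the labels of both untreated arrays exchanged, as their Vdr signal would have it, 109 probe sets were called (1882 at an unadjusted p under 0.05), none of them for the 9 genes. For Mmp12 the pair changes were -4.83 and -5.23 log2 in wild type and -6.35 and -6.47 in Vdr-/-. The difference of 1.38 log2 (SE 0.487, 95% interval 0.37 to 2.39) did not pass (adjusted p = 0.996, unadjusted 0.00931), and was 1.08 log2 with the exchange (adjusted p = 0.371). For Mmp14 the pair changes of the brighter probe set were 0.05 and -0.83 log2 in wild type and 1.01 and 0.46 in Vdr-/-. The difference of -1.13 log2 (SE 0.485) did not pass either (adjusted p = 0.996, unadjusted 0.0294). Its second probe set read 357.8 and 124.9 in wild type without IFN-gamma and 252.2 and 90.4 with it, against 187.2 and 249.7, then 507.2 and 513.7, in Vdr-/-. Both wild-type pairs went down and both Vdr-/- pairs up on that probe set, with a difference of -1.72 log2 (SE 0.586, adjusted p = 0.996, unadjusted 0.0073). With the exchange this pattern was lost: the pairs without calcitriol went up by 0.43 log2 in wild type and 0.50 in Vdr-/-, and the difference was -0.79 log2 (adjusted p = 0.664).

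Wild type was compared with Vdr-/- over the 4 treatments, a contrast in which limma called 0 of 18058 probe sets and 0% of named genes (611 at an unadjusted p under 0.05). The culture and the mouse behind each array cannot be told apart from genotype. None of the 9 genes was called, and 4 had an unadjusted p under 0.05, namely Mmp12, Mmp14, Timp1 and Timp2. Timp1 was higher in wild type in 4 of 4 treatments, by 0.46 log2 untreated and 1.01 with calcitriol, and by at least 2.13 with IFN-gamma and 1.71 with both, where Vdr-/- was at the floor (mean 1.33, SE 0.603, adjusted p = 0.999). Timp2's brightest probe set was lower in wild type in 4 of 4 treatments, by -0.58 to -0.75 log2 (mean -0.66, SE 0.302, adjusted p = 0.999). With the labels of the untreated pair exchanged, the untreated difference turned to -0.46 log2 for Timp1 (mean 1.10) and to 0.59 log2 for Timp2 (mean -0.36), so that each ran 1 way in only 3 of 4 treatments. Of all named genes tested, 4.96% were higher and 4.6% lower in wild type in all 4 treatments. None of the 9 genes had all 4 wild-type arrays above or below all 4 Vdr-/- arrays, as 1.42% and 0.839% of named genes did. Mmp12 was at -0.30 and 0.39 log2 without IFN-gamma and at 1.22 and 1.63 with it, wild type minus Vdr-/-, and Mmp14 was lower in wild type in 3 of 4 treatments. With the exchange Mmp12 was higher in wild type in 4 of 4, at 0.30 log2 untreated, and Mmp14 lower in 4 of 4, at -0.24 log2 untreated.

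Calcitriol was compared with its absence in wild-type cells, which carry the receptor, and in Vdr-/- cells. None of the 9 genes was called in either genotype, where limma called 0.56% of named genes in wild type and 0.145% in Vdr-/- (0.576% and 0.194% of probe sets). In wild type 2 and in Vdr-/- 0 of the 9 had an unadjusted p under 0.05, as did 1857 and 1147 of all 18058 probe sets. Those 2 were Mmp12 and Mmp14, which went opposite ways. Mmp12 was higher with calcitriol in all 4 pairs, by 1.27 and 0.87 log2 in wild type, without and with IFN-gamma, and by 0.58 and 0.46 log2 in Vdr-/-. Of all named genes tested, 3.62% were higher in all 4 pairs. The fitted change was 1.07 log2 in wild type (SE 0.344, limma adjusted p = 0.206) and 0.52 in Vdr-/- (SE 0.344, adjusted p = 0.903). The difference between genotypes was 0.55 log2 with a 95% interval of -0.46 to 1.56 (adjusted p = 0.706), so a change of like size in both and one confined to wild type both lie within its error. With the untreated labels exchanged, the Mmp12 pairs without IFN-gamma gave 0.97 log2 in wild type and 0.88 in Vdr-/-. The fitted changes were then 0.92 log2 in wild type and 0.67 in Vdr-/- (limma unadjusted p = 0.00785 and 0.0415). The difference between genotypes was 0.25 log2 (adjusted p = 0.932).

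Mmp14 was lower with calcitriol in both wild-type pairs, by 0.70 and 1.58 log2 on the brighter probe set and by 1.52 and 1.48 log2 on the other. In Vdr-/- the same probe sets changed by 0.07 and -0.48 log2, and by 0.42 and 0.02 log2. In wild type the fitted changes were -1.14 log2 (SE 0.343, limma adjusted p = 0.162) and -1.50 log2 (SE 0.414, adjusted p = 0.115). The differences between genotypes were -0.93 log2 (95% interval -1.94 to 0.07, adjusted p = 0.462) and -1.72 log2 (-2.93 to -0.50, adjusted p = 0.186), where 1.39% of named genes and 1.5% of probe sets were called. With the untreated labels exchanged, the pairs without IFN-gamma gave -0.46 log2 in wild type and -0.17 in Vdr-/- on the brighter probe set, and -0.58 and -0.52 log2 on the other. The genotypes then nearly coincided in that pair on the second probe set, and the differences were -0.69 log2 (adjusted p = 0.839) and -0.78 log2 (adjusted p = 0.851), with 0 probe sets called in all (1126 at an unadjusted p under 0.05). Among the macrophage markers, Cd14 and Fcgr1 were called lower with calcitriol in wild type (adjusted p = 0.0774 and 0.0533 with the exchange). Cd68 was called higher in Vdr-/- (1.66 log2, adjusted p = 0.0416). For the difference between genotypes 4 of 9 tested macrophage markers were called, Cd68, Itgam, Cd14 and Fcgr1, all with the lower change in wild type. With the exchange, 0 probe sets were called in either of these last contrasts. The part of these markers in the Mmp14 values was not tested. With calcitriol the Gapdh ratio went from 1.11 to 7.67 and from 1.04 to 1.65 in wild type, without and with IFN-gamma, and Mmp14 was lower in both pairs. In Vdr-/- the ratio went from 4.82 to 0.853 and from 3.06 to 1.07. It thus rose with calcitriol in wild type and fell in Vdr-/-, so the ratio and calcitriol cannot be fully told apart in these pairs. For Timp2 the third-brightest probe set was lower in wild type with calcitriol, at 636 against 1251 without IFN-gamma and 126.1 against 480.1 with it (-1.45 log2, adjusted p = 0.0527), but the brightest gave -0.47 log2 (adjusted p = 0.675). The brightest was lower with calcitriol in all 4 pairs of both genotypes, by 0.17 to 0.78 log2 (to 1.36 with the exchange), as were 4.49% of named genes. Adam8 changed by -0.22 log2 in wild type (adjusted p = 0.846) and 0.32 in Vdr-/- (adjusted p = 0.937).

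**Figure D4:**
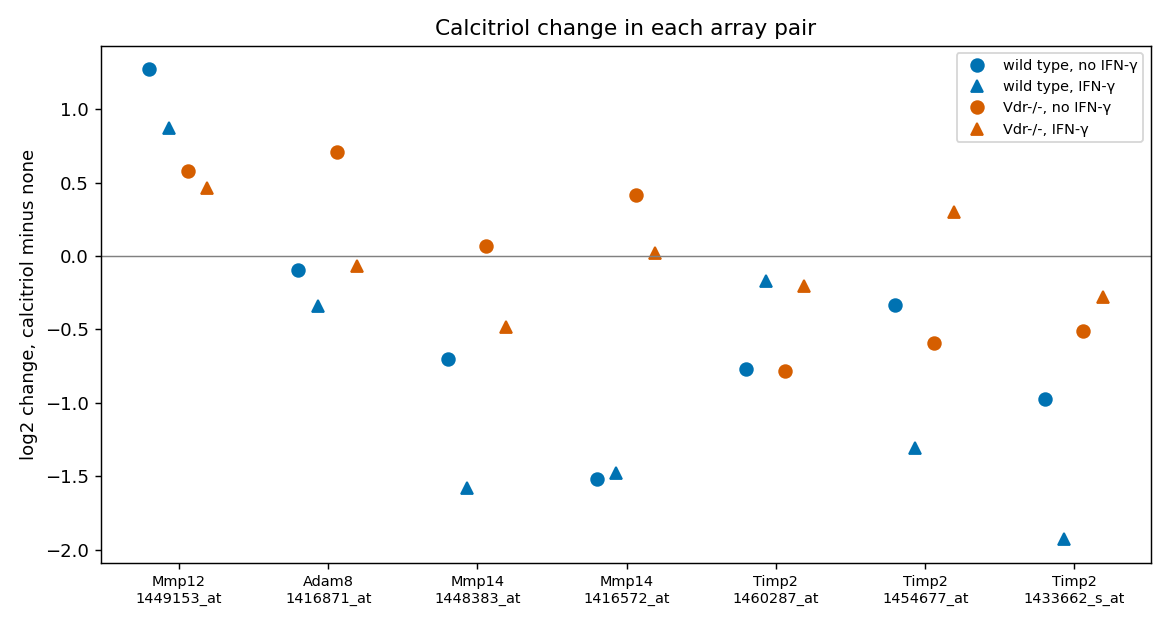
Log2 change with calcitriol in each array pair for the single Mmp12 and Adam8 probe sets, both Mmp14 probe sets and the 3 brightest of Timp2, with circles for pairs without IFN-gamma, triangles for pairs with it, blue for wild type and orange for Vdr-/-. All 4 Mmp12 points lie above 0, and the wild-type points of Mmp14 lie between -0.70 and -1.58, below all Vdr-/- points of the same probe set as labelled; with the untreated labels exchanged, 1 wild-type point of the brighter probe set moves to -0.46, above the Vdr-/- point at -0.48.

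The genes whose log2 signal ran most like that of Mmp12 over the 8 arrays, among 9712 compared, were Ccl9 (Pearson's r 0.991), Ctsl (0.985), Emp1 (0.977), Plin2 (0.977) and Anxa1 (0.975). For Ccl9, a chemokine gene, the signal was 1291 and 2141 in wild type and 1550 and 2715 in Vdr-/- without IFN-gamma, untreated before calcitriol, and 194.4 and 403.1, then 144.9 and 176.7, with it. Ccl9, picked for its likeness to Mmp12 on these same arrays, was lower with IFN-gamma and higher with calcitriol in each pair. Ctsl, Emp1, Plin2 and Anxa1 also fell with IFN-gamma, but each was lower with calcitriol in some pair. For Adam8 the closest were H1f2 (0.985), Phip (0.978) and Plp2 (0.976). The arrays form separate clusters with and without IFN-gamma for Mmp12 and Adam8, and all these values share the same 8 arrays, so r describes that split and the order within it.

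Related genes were read from lists of the same pathway. Of the other matrix metalloproteinases and Timp4, 13 of 18 were on the array and 9 tested, and limma called 0 for IFN-gamma (1 at an unadjusted p under 0.05), with a median of -0.45 log2. Of the other ADAM and ADAMTS proteases and the iRhoms, 16 of 21 were tested and 0 called (2 at an unadjusted p under 0.05), with a median of -0.03 log2. Among these the main sheddases Adam17 and Adam10, named for their role, changed by 0.19 and 0.04 log2 on their brightest probe sets, unlike the fall of Adam8. Their dimmer probe sets each rose in some pairs and fell in others. Of the activators, docking partners and other inhibitors, such as Furin and Plaur, 13 of 19 were tested and 0 called (3 at an unadjusted p under 0.05), with a median of -0.49 log2. Limma called 0 genes of any of these lists for genotype.

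Substrates of these enzymes went both ways with IFN-gamma, with 2 higher and 3 lower of 16 tested and a median of -0.14 log2. The TNF receptor gene Tnfrsf1a rose by 1.00 log2 (limma adjusted p = 0.00484) while the other TNF receptor gene, Tnfrsf1b, fell by 0.99 log2 (adjusted p = 0.0232) on its brighter probe set. The second Tnfrsf1b probe set went both ways. It read 506.7 and 110.8 in wild type and 117.7 and 246.3 in Vdr-/- without IFN-gamma, untreated before calcitriol. The same order gave 263.7, 100.6, 228.9 and 269.6 with it. Selplg, the selectin ligand gene, rose by 0.85 log2 (adjusted p = 0.0315). The matrix genes Fn1, for fibronectin, and Col3a1, for collagen, fell by 1.49 log2 (adjusted p = 0.0351) and 2.02 log2 (adjusted p = 0.0308), and Col3a1 is also on the stromal list above. Among 12 AP-1, Ets and related regulators tested, 1 was called, Fos, which fell by 1.94 log2 (adjusted p = 2.29e-06). Fos read 1857 and 449.8 in wild type and 1698 and 1880 in Vdr-/- without IFN-gamma, untreated before calcitriol, and 473.1 and 102.3, then 573.9 and 438.4, with it.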

How the data were processed

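RNA of 8 mouse macrophage samples was measured on 1-colour arrays. The values deposited by the authors are intensity on a linear scale, 1 per probe set and array. From the values, each array had been scaled to the same trimmed mean (150.07 to 150.08). The sources used here do not name the software or the scaling step.

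Of 22690 probe sets, 64 controls were set aside. Values under the lower quartile of all values (15.5) were raised to it before log2 was taken. Testing covered the 18058 probe sets whose highest signal reached the overall median (59.1). By the platform annotation 20380 probe sets had 1 gene, 691 several and 1555 none, and symbols were updated through RefSeq gene identifiers. Counts of genes use each gene's brightest probe set.

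Moderated tests were run in limma 3.58.1 under R 4.3.3. Their prior followed intensity, they were two-sided, and p was adjusted by Benjamini-Hochberg across every probe set tested, with calls at 0.05. For IFN-gamma and for genotype the model held 4 blocks of 2 arrays, leaving 3 residual degrees of freedom. Calcitriol and the differences between genotypes were taken from a model with treatments inside each genotype, leaving 2, so that its spread comes from how the treatments combine. With 1 array a group, p-values measure only this spread. The scripts were tested on simulated data. The number of arrays limits the precision.

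The genes, lists, tests and alternatives were chosen with earlier results of these data known. Names cover all 10 genes and every gene of a related list called for IFN-gamma or genotype by brightest probe set. They also cover the 5 genes most like Mmp12 or 3 most like another called gene, among genes with at most 4 arrays at the floor. Some further genes were named for their role, as markers or examples, or after their values were seen. Alternatives comprised a quantile step, dropping or tightening (75th percentile) the filter, a floor at the 10th or the 40th percentile, no intensity trend, additive models, exchanged labels of the untreated arrays, leaving out the 2 arrays with the highest Gapdh ratio (with an additive model), that ratio as a covariate, averaging the tested probe sets of a gene, and each pair left out.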

Additional observations from a re-analysis of the deposited data

How the results depend on the processing

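Mmp12 was called lower with IFN-gamma under every alternative run, at -5.47 to -6.02 log2. The 2 genes called became 1 (Mmp12) with no intensity trend and when an additive model left out the 2 arrays with the highest Gapdh ratio (2 when it held all arrays), 3 with the floor at the 40th percentile (Mmp8 added), and 5 with the mean over probe sets (Mmp8, Timp1 and Timp2 added), where fewer features were tested. The 3 Timp2 probe sets called became 0 without the filter, without the trend and in that model without those 2 arrays (3 with all arrays), and 0 to 2 with a pair left out. They became 0 without the Vdr-/- pair that lacked calcitriol and without either wild-type pair. The number of all probe sets called for IFN-gamma, 619, ranged from 53 to 638. Exchanging the untreated labels turned the counts for genotype from 0 to 7, for calcitriol in wild type from 104 to 20, in Vdr-/- from 35 to 0, and for the difference in calcitriol effect from 271 to 0. Estimates that changed sign were never called. The IFN-gamma change of Mmp14 was -0.017 log2 without those 2 arrays and -0.10 to 0.51 with a pair left out, that of Mmp13 0.32 with the Gapdh covariate and -1.25 to 0.054 with a pair left out, and the calcitriol change of Mmp14 in Vdr-/- 0.27 with the covariate and 0.0042 with the mean over probe sets. The cause was not tested. By brightest or averaged probe set, no gene of the 10 was called for genotype, calcitriol or either difference under any alternative run. The third-brightest Timp2 probe set was called for calcitriol in wild type with the floor at the 40th percentile (adjusted p = 0.0391) and with the Gapdh covariate (-2.16 log2, adjusted p = 0.0146).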

Other observations

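Thrombospondin 1, encoded by Thbs1, is a matrix protein that binds metalloproteinases. Thbs1 was the only gene of the activator and inhibitor list called for calcitriol in wild type, and was named after its values were seen. Its brighter probe set read 280.7 without and 40.7 with calcitriol in wild type, and 191.9 against 7.5, which is at the floor, when IFN-gamma was present. In Vdr-/- the same pairs read 117.7 against 181.7 and 197.9 against 177.1. With the untreated labels exchanged, the pairs without IFN-gamma changed by -1.53 log2 in wild type and -0.63 in Vdr-/-, lower in both, and the wild-type call was lost (limma adjusted p = 0.142 against 0.0125). The second Thbs1 probe set, as labelled, read 272 against 110.2 and 139.4 against 76.2 in wild type. In Vdr-/- it read 79.8 against 121 and 161.6 against 162. With the exchange its pairs without IFN-gamma read 79.8 against 110.2 in wild type and 272 against 121 in Vdr-/-. Fos was the only regulator called for calcitriol in wild type, also lower, and stayed called with the exchange (limma adjusted p = 0.0135). In that contrast 0 probe sets were called with no signal filter, with the tighter filter or with no intensity trend. The calls of Fos, Thbs1, Cd14 and Fcgr1 were thus lost in each of these alternatives.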
